A study of Homo sapiens with 6 samples.

Results

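CSMD1, CSMD2 and CSMD3 are the 3 CUB and Sushi multiple domains genes, taken by symbol from the 19974 protein-coding genes placed on chromosomes 1 to 22 and X. They encode very large single-pass membrane proteins whose extracellular part alternates CUB domains with long runs of Sushi domains, the fold that complement regulators use to bind complement proteins. CSMD1 restrains complement activation and lies in an arm of chromosome 8 that many tumours lose. CSMD2 has been placed at dendritic spines and synapses in mouse neurons, and CSMD3 promotes dendrite branching in mouse neurons and is often mutated in carcinomas. All 3 are expressed mainly in brain. Genes of this kind, long and silent outside neurons, often lie in lamina-associated domains, the stretches of chromatin that touch the lamin meshwork under the nuclear membrane.

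LaminB1, a B-type lamin of that meshwork, was mapped by CUT&RUN, in which an antibody directs a nuclease to cut and release the chromatin around its target. The cells were HCT116, an established line from a human colorectal carcinoma, with its own TOP2A alleles fused to mAID, a domain that lets auxin trigger degradation of the protein. The double loss group, labelled as a TOP2A and TOP2B double knockout, also lacked TOP2B through CRISPR/Cas9 deletion and received 500 uM auxin (indole-3-acetic acid) for 8 h. This treatment depletes TOP2A by as much as 95%, according to the series text. The control group, labelled wildtype, was the TOP2A-mAID line without auxin. Both groups were arrested in G1 with 2 uM palbociclib over 28 h. Auxin and the TOP2B deletion came together, so their parts cannot be told apart, and the labels do not say whether the TOP2B knockout is 1 clone. LaminB1 was profiled in 2 libraries per group beside 1 IgG library, and the list of regions called in each LaminB1 library was analysed, on hg38. The labels do not say that replicates came from separate cultures, and p-values measure the spread between libraries, which may be technical.

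There were 12410 and 12242 regions in the double loss lists and 10771 and 13599 in the control lists, with 7263458 to 8351031 LaminB1 reads inside regions per list. The reads outside regions, and so the full depth, are unknown. Both lists of a group carry the same control library counts, so they are not fully independent, and the SD and p-values below do not hold the spread between control libraries. The difference between groups is also one between 2 single control libraries, and these cannot be told apart. Control 2 stood apart in region number and in a median width of 22 kb, against 29 to 30 kb in the other 3 lists. The bodies of TOP2A, TOP2B and LMNB1 lay 0% inside regions in all 4 lists, so these lists hold no check of the deletion or the degradation.

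CSMD2 spans 651.845 kb of chromosome 1 from 33513998 to 34165842. CSMD2 is on the minus strand in the RefSeq promoter table (GRCh38.p14, the hg38 coordinates), so it begins at its upper coordinate, and that is where the lists differ most around it. The table gives it 2 start windows, shown here because no list placed either start inside a LaminB1 region. HMGB4, an HMG-box gene known from testis, lies inside the CSMD2 body on the plus strand. The first of its 2 starts in the table is shown for contrast, because both lay inside a region in 3 of 4 lists. Each window holds 250 bases before the start and 50 from it on, written 5′ to 3′ along the gene, with CG dinucleotides in capitals.
CSMD2, start at 34165842 (chr1:34165793-34166092, minus strand): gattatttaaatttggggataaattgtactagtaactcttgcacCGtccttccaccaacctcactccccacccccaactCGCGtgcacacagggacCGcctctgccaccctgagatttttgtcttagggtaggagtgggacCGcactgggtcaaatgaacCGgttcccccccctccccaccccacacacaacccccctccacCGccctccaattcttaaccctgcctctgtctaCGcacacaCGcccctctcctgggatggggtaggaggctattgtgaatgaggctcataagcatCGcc
CSMD2, start at 34165230 (chr1:34165181-34165480, minus strand): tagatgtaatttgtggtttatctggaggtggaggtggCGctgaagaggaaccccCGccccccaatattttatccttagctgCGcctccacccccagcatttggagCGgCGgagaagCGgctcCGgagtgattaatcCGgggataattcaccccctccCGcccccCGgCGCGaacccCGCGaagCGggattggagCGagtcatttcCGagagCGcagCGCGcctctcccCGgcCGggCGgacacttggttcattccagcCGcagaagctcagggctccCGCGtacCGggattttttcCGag
HMGB4, start at 33860475 (chr1:33860225-33860524, plus strand): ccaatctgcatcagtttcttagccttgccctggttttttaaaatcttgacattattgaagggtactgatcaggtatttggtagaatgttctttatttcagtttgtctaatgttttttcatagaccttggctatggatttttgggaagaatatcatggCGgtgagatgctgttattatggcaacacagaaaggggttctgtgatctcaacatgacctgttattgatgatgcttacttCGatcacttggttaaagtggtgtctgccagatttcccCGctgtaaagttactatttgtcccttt
The inner CSMD2 window held 28 CG dinucleotides and 62% G or C, and 26.2% of the 34961 windows in the table, each 300 bases long, held as many CG or more. The outer CSMD2 window held 10 CG, reached by 56.5% of windows, and the HMGB4 window held 3, reached by 81.9%. CG reads the same on both strands, so 1 search covers both. The letters TATAAA, searched on both strands, were in none of these 3 windows and in 11.5% of all windows. A link between CG content and regions was not tested. Of the starts of C1orf94, the next gene above CSMD2, the one at 34176907 held 23 CG and lay inside a region in control 1 alone. The one at 34166993 held 14 CG and lay inside no region in any list.

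CSMD1 spans 2059.55 kb of chromosome 8 from 2935361 to 4994914, and CSMD3 spans 1214.01 kb of the same chromosome from 112222928 to 113436939. The first comparison asks how much of each gene lay inside LaminB1 regions in either group. CSMD3 lay almost wholly inside LaminB1 regions, CSMD2 in part, and CSMD1 hardly at all. CSMD3 had 96.9% and 99.3% of its body inside regions in the double loss libraries, against 92.4% and 86.1% in the control libraries. Both double loss values lay above both control values. The means were 98.1% ± 1.69 in the double loss group and 89.3% ± 4.48 in the control group (SD, n = 2 each), a difference of 8.81 percentage points (limma adjusted p = 0.326). CSMD2 had 27.5% and 32.8% in the double loss libraries, against 43.3% and 37.3% in the control libraries. Here both double loss values lay below both control values. The means were 30.1% ± 3.80 in the double loss group and 40.3% ± 4.23 in the control group (SD, n = 2 each), a difference of -10.1 points (limma adjusted p = 0.589). CSMD1 had 9.23% and 5.34% in the double loss libraries, against 1.02% and 3.79% in the control libraries. Its double loss values were the higher ones, with means of 7.28% ± 2.75 in the double loss group and 2.40% ± 1.96 in the control group (SD, n = 2 each). The difference was 4.88 points (limma adjusted p = 0.589).

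None of the 3 differences passed limma with Benjamini-Hochberg adjustment over the 3058 genes with covered sequence, where calls of higher coverage after double loss made up 1.67% of genes and calls of lower coverage 0.981%. Groups that do not overlap were common among those genes, at 21.5% with both double loss values above both controls and 13.9% with both below, so the 3 separations are not in themselves a result about the CSMD genes. The median difference over these genes was 0.768 points. Exact permutation over the 6 assignments of the 4 libraries gave p = 0.33 for each gene (two-sided, 3 tests, Benjamini-Hochberg 0.33), the smallest value that 2 against 2 libraries allow. With gaps of at most 5 kb between regions merged, CSMD3 was at 100% in both double loss lists, against 96.5% and 91.6% in the control lists (limma adjusted p = 0.182).

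**Figure D1:**
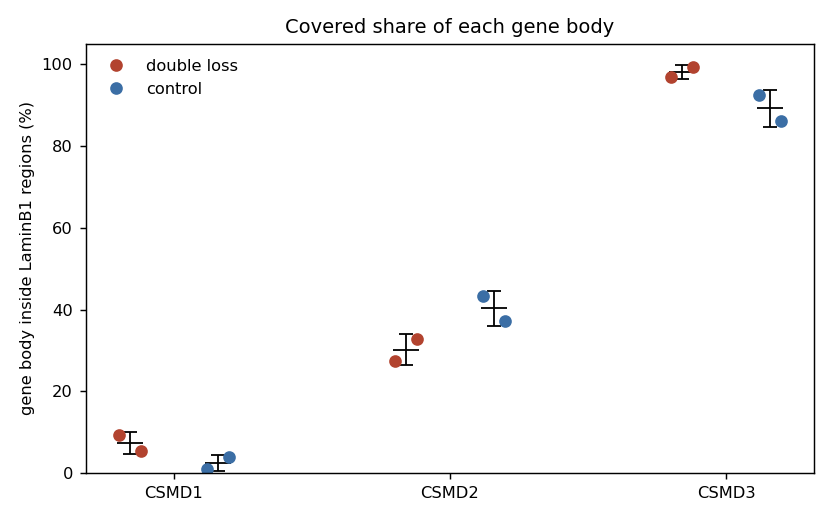
Share of each gene body inside LaminB1 regions (y axis, percent) by gene (x axis); points are libraries, the long tick and bars are the group mean and SD (n = 2), double loss left of control. CSMD3 sits at 96.9% and 99.3% in the double loss group and at 92.4% and 86.1% in the control group, far above CSMD2 and CSMD1 in every library.

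With all regions used, the order CSMD3, CSMD2, CSMD1 held in each of the 4 libraries, with no overlap between genes. CSMD1 and CSMD3 share chromosome 8, of which 45.7% lay inside regions in each double loss list and 43.4% and 41.7% in the control lists. CSMD3 was above and CSMD1 below that chromosome-wide share in all 4 lists. CSMD2 exceeded the share of chromosome 1, which was 21.2% and 21.4% in the double loss lists and 20.8% and 19.3% in the control lists.

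Dense coverage by LaminB1 regions reached far past both ends of CSMD3 in all 4 lists. Regions covered 99.5% and 98.6% of the 1000 kb below the gene in the double loss lists, and 98.2% and 96.9% in the control lists. In the 1000 kb above the gene they covered 95.6% and 96.4% in the double loss lists, against 85.1% and 81.0% in the control lists. Next to the upper end the groups stood the other way round, with 91% and 96% of the first 100 kb covered in the double loss lists and 100% in both control lists. No other protein-coding gene overlaps CSMD3 or lies within 1000 kb of it. The nearest is TRPS1, a GATA-type transcriptional repressor gene 1971.56 kb above, covered at 98.5% and 100% in the double loss lists and 96.7% and 100% in the control lists. On the other side KCNV1, a potassium channel subunit gene 2247.16 kb below, was at 100% in all 4 lists. Beyond it the values came down: SYBU, the syntabulin gene, was at 33.7% and 48.97% in the double loss lists, against 33.7% and 19.2% in the control lists. EBAG9 was at 0% in both double loss lists and 20.2% in both control lists (limma adjusted p = 0.0724). EIF3H, a translation initiation factor gene above TRPS1, was at 16.8% and 0% in the double loss lists and 0% in both control lists, and UTP23 at 0% in all 4.

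What differed in CSMD3 was how often this coverage was interrupted. The gene was overlapped by 10 and 3 regions in the double loss lists, against 16 and 22 in the control lists. The longest of these regions was 907 and 1019 kb wide in the double loss lists, against 285 and 325 kb in the control lists. These are full widths, and the 907 kb region of double loss 1 ran from 111587001 to 112494000, so most of it lay below the gene. The 1019 kb region of double loss 2 also ran past the upper end of the gene. The longest region wholly inside the gene was 344 and 164 kb in the double loss lists, against 285 and 168 kb in the control lists. By that measure the groups overlap. Median widths were 73.5 and 164 kb in the double loss lists, against 57.5 and 39.5 kb in the control lists. Both double loss lists thus had fewer regions over CSMD3 than both control lists, and the 2 double loss lists differed from each other as well. How often other genes show this was not counted. Most interruptions were short: all 9 and all 2 gaps between regions in the double loss lists were at most 5 kb, as were 12 of 15 and 16 of 21 in the control lists. Once such gaps were closed, CSMD3 lay inside a single stretch in each double loss list, 2732 and 4830 kb long. The control lists then had 4 and 6 stretches over the gene, the longest 1621 and 1187 kb.

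The longer gaps were found in the control lists alone, 3 in control 1 and 5 in control 2. Control 1 had gaps of 12, 16 and 14 kb that began 722.073, 775.073 and 1151.07 kb from the lower end of the gene. Control 2 had gaps of 12, 7, 29, 13 and 41 kb, which began 530.073, 668.073, 845.073, 1079.07 and 1166.07 kb from that end. None of the 8 began in the lower 500 kb of the gene, and no gap of control 1 shared sequence with a gap of control 2. The gap of 41 kb in control 2 ran from 113389001 to 113430000. Of the 1215 windows of 1 kb that touch CSMD3, 950 lay inside regions in all 4 lists. A further 17 were covered in the double loss pair of lists alone, and 0 in the control pair alone. Such windows were not counted over other genes, so these numbers show nothing particular to CSMD3.

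**Figure D2:**
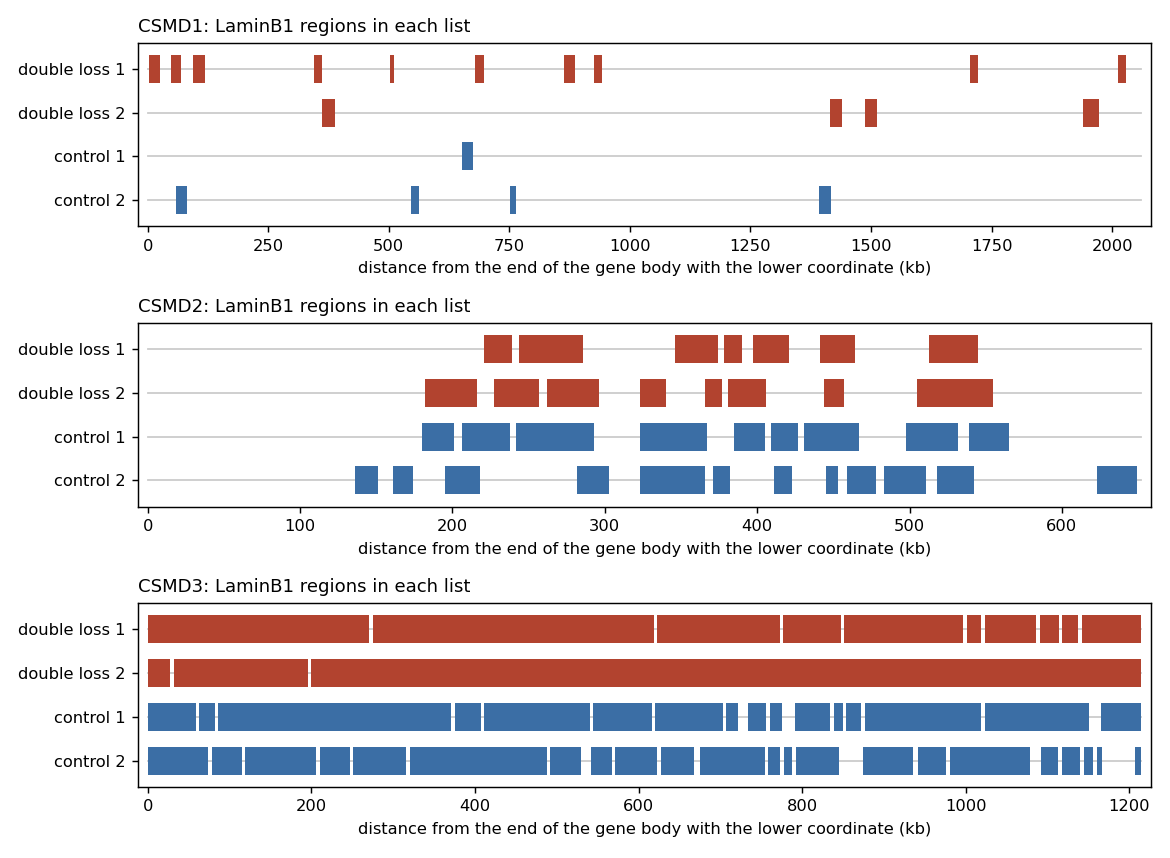
LaminB1 regions (filled bars) along CSMD1, CSMD2 and CSMD3 in each list (rows, double loss above control); the x axis is the distance in kb from the gene end with the lower coordinate, and regions that run past a gene end are clipped there. CSMD1 has 1 to 10 short regions per list at different places, CSMD2 has regions in its middle, and CSMD3 is covered nearly throughout, with its longer gaps in the control lists.

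In 20 kb steps from the lower end, CSMD3 had 60 whole steps, and 19 of them were fully covered in all 4 lists. Steps at least 50% covered numbered 60 in both double loss lists, against 58 and 55 in the control lists. The double loss values were both above the control values in 8 steps and below both in 0, which is 13.3% of the steps with any covered sequence, against 14.2% above in all 17560 such steps of protein-coding genes and 10.1% below. The groups were at least 20 points apart in 4 of the 60 steps, in 3 places, where 9.43% of all such steps were as far above. From 780 to 800 kb both double loss libraries were at 100%, against 44.6% and 80% in the control libraries (limma adjusted p = 0.393). From 860 to 880 kb they were at 100%, against 75% and 29.6% in the control libraries (limma adjusted p = 0.469). From 1140 to 1180 kb, near the upper end, they averaged 94.8% and 100%, against 65% and 45.2% in the control libraries (lowest limma adjusted p = 0.465). No step of CSMD3 passed, with a lowest limma adjusted p of 0.0764 and 4 steps at an unadjusted p under 0.05. By the same limma fit 0 of the 17560 steps passed, while 2152 had an unadjusted p under 0.05. Without the variance trend limma called 2 of the 60 steps of CSMD3 higher, against 2.39% of all steps. With 1 library left out, the lone library of its group is assumed to vary like the other group. Most steps of CSMD3 had both double loss libraries at 100%, a pair with no spread. A lone control library somewhat below 100% could then be called, so calls made without 1 control carry no weight. The direction of the calls also depended on the library dropped. Calls were of higher coverage without either control library, and of lower coverage without either double loss library.

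CSMD2 had regions in its middle and upper parts but none near its lower end. Its lower end, which is the end of the gene in the direction of transcription, and the 1000 kb directly below it were outside regions in all 4 lists. ZSCAN20, PHC2 and A3GALT2, the 3 nearest genes on that side, were at 0% in all 4 lists. Counted from the lower end, the first region began at 221.003 and 182.003 kb in the double loss lists, against 180.003 and 136.003 kb in the control lists. The first region thus began inside the gene body in every list, at a place that differed between libraries of 1 group too. Divided into 4 equal parts from the lower end, the gene was covered at 0% and 0% in the first part in the double loss lists, against 0% and 10.4% in the control lists. The second part was at 36.8% and 61.9% in the double loss lists, against 65.6% and 35.6% in the control lists, so the groups overlap there. In the third part the double loss lists were at 53.4% and 38.7%, below the 70.6% and 58.9% of the control lists. In the fourth, which holds the starts, they were at 19.6% and 30.7%, below the 36.8% and 44.3% of the control lists.

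The regions over CSMD2 were short and only partly shared. There were 7 and 8 in the double loss lists and 9 and 12 in the control lists, with median widths of 24 and 27.5 kb after double loss, against 32 and 20 kb in the control lists. Of 410 kb inside a region in any list, 29 kb lay inside regions in all 4 lists, while 123 kb lay in 1 list alone. The double loss pair of lists alone covered 9 kb, and the control pair alone 20 kb, lengths that were not measured over other genes. The Jaccard index, the shared over the joint length of 2 lists, was 0.440 between the double loss lists and 0.329 between the control lists over CSMD2. Across groups it was 0.227 to 0.570, so lists of 1 group were not more alike here than lists of different groups. Over the whole genome the index was 0.626 between the double loss lists, 0.642 between the control lists and 0.565 to 0.583 across groups.

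Of the 32 whole steps of CSMD2, 8 were empty in all lists and 24 held some covered sequence. The double loss values were both below the control values in 4 of these 24 steps (16.7%, against 10.1% of all such steps) and above both in 0. They were lower by at least 20 points in 1 step, as were 6.57% of all such steps. It ran from 340 to 360 kb, where the double loss libraries were at 70.0% and 0.015% and both controls at 100% (limma adjusted p = 0.664). That step holds the HMGB4 start window shown above. The HMGB4 body was at 100% and 0% in the double loss lists and at 100% in both control lists (limma adjusted p = 0.589). Its starts at 33860475 and 33864079 were 6.475 and 10.079 kb from the nearest region in double loss 2, so the difference at this nested gene rests on that library.

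Past the CSMD2 start the separation was wider than inside the gene. C1orf94 begins 1.151 kb above CSMD2 on the plus strand, so the 2 genes point away from each other. It was at 0% in both double loss lists, against 26.9% and 34.8% in the control lists (limma adjusted p = 0.0721). The nearest region was 58.159 and 96.842 kb away from the CSMD2 start at 34165842 in the double loss lists, against 9.159 and 2.842 kb in the control lists. Such distances were not compared with those of all other starts, so how common this separation is remains unknown. A different measure, the share of all starts of the table inside a region, was 9.28% and 9.60% in the double loss lists. In the control lists that share was 9.59% and 8.76%. The 589.204 kb between CSMD2 and the gap junction gene GJB5 were covered at 30.4% and 21.6% in the double loss lists, against 64.2% and 54.1% in the control lists. The means were 26.0% ± 6.24 in the double loss group and 59.1% ± 7.08 in the control group (SD, n = 2 each), with an exact permutation p of 0.33. This stretch was chosen after its values were seen. GJB5 was at 0% in all 4 lists, so no list reached it.

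CSMD1, the longest of the 3, held scattered single regions. There were 10 and 4 in the double loss lists and 1 and 4 in the control lists, 10 to 33 kb wide, each with 135 to 349 LaminB1 reads. Its longest stretch with no region measured 762 and 1027 kb after double loss, against 1385.91 and 641.914 kb in the control lists, so the groups overlap here. Of 387 kb inside a region in any list, 375 kb lay in 1 list alone, 12 kb in 2 lists and 0 in 3 or 4. The Jaccard index was 0 between the double loss lists, 0 between the control lists and at most 0.0347 across groups. The higher covered share of CSMD1 in the double loss group was thus made of places that the 2 double loss lists did not share.

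Of the 102 whole steps of CSMD1, 69 were empty in all lists and 0 were covered in all. The double loss values were both above the control values in 1 step of the other 33 (3.03%, against 14.2% of all such steps), from 360 to 380 kb, and below both in 0. The values in that step were 3.20% and 91.8% in the double loss libraries, against 0% in both control libraries (limma adjusted p = 0.710). In 4 equal parts from the lower end, double loss 1 had its highest share in the first part, at 18.3%, and double loss 2 in the third, at 9.91%, where double loss 1 had 0%. The control lists were at 0% to 5.83% in all 4 parts. The nearest genes below CSMD1 were outside regions as well, although 20.8% and 36.6% of the 500 kb below it were covered in the double loss lists and 26.4% and 7% in the control lists. MYOM2, a sarcomere M-band protein gene 789.905 kb below, and KBTBD11 and ARHGEF10 beyond it were at 0% in all 4 lists. Of the 3 nearest annotated genes above CSMD1, 2 were at 0% throughout and LOC128966567 was at 0% and 100% in the double loss lists and 0% in both control lists.

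**Figure D3:**
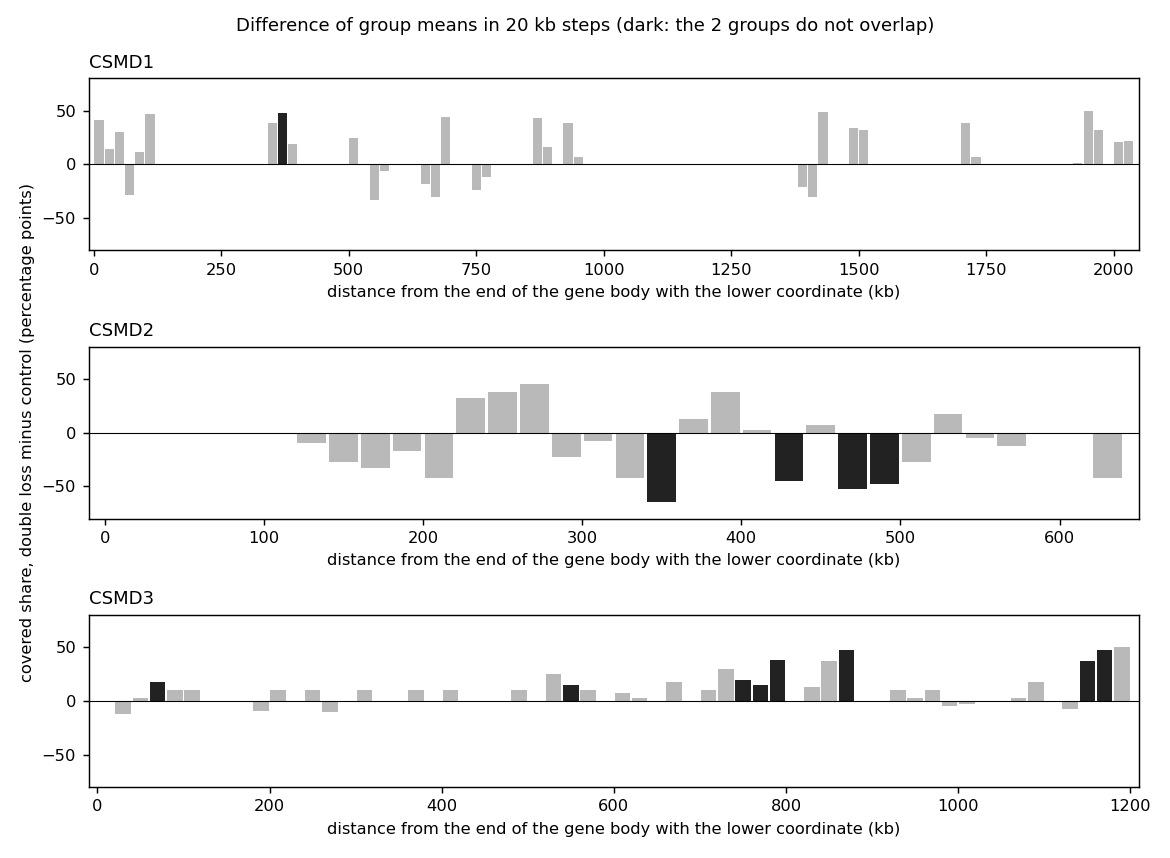
Difference of group means of the covered share (y axis, double loss minus control, percentage points) in each 20 kb step along the 3 genes (x axis, kb from the gene end with the lower coordinate); dark bars are steps where the 2 groups do not overlap. CSMD3 has 8 such steps, all above 0, CSMD2 has 4, all below 0, and CSMD1 has 1.

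Reads in the regions gave the strength of the signal. The authors' log2 fold compares LaminB1 with control library reads in a region, after 1 constant per list, and was used within lists. Regions over CSMD3 had median log2 folds of 0.36 and 0.34 in the double loss lists, against 0.51 and 0.50 over all regions of those lists. Their medians were 0.38 and 0.41 in the control lists, against 0.55 and 0.60 over all regions. Of the 51 regions over CSMD3 in the 4 lists, 2 exceeded the median fold of their own list. The same held for 5 of 36 regions over CSMD2 and 6 of 19 over CSMD1. The high coverage of CSMD3 thus went with folds below the list median, as on chromosome 8 in general, where the median over all regions was 0.42 and 0.41 in the double loss lists and 0.44 and 0.47 in the control lists. A list cut to the upper 50% of its regions by fold left CSMD3 at 1.48% and 0% in the double loss lists and 0% and 0.824% in the control lists. CSMD2 was then at 1.84% and 3.68% in the double loss lists, and at 5.22% and 1.23% in the control lists. CSMD1 was at 3.64% and 1.60% in the double loss lists, and at 1.02% and 0% in the control lists. The order of the 3 genes found with all regions thus held in no list. When the lists were reduced by fold to the 10771 regions of the shortest list, that of control 1, CSMD3 was at 93.4% and 99.3% in the double loss lists and 92.4% and 29.7% in the control lists. The list of control 2, the longest, lost the most regions in this step.

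Control library reads were not spread alike over the 3 genes. Regions over CSMD3 held 10.7 and 10.5 control library reads per kb in the double loss lists, 1.21 and 1.19 times the density over all regions of the list. In the control lists they held 7.93 and 7.97 reads per kb, 1.14 times the list's density in both. LaminB1 reads over CSMD3 were at 14.5 and 14.1 per kb in the double loss lists (1.08 and 1.05 times the list's density) and at 12.3 and 12.9 in the control lists (0.991 and 0.976 times). Regions over CSMD2 had control library densities of 1.03 and 1.02 times the list's in the double loss group and 1.03 and 1.00 times in the control group. Over CSMD1 the same ratio was 0.881 and 0.872 in the double loss group and 0.735 and 0.951 in the control group. Both kinds of reads were thus denser over CSMD3 in the double loss lists, and their part in the fewer gaps was not tested. In each list the ratios of control library density fell in the order CSMD3, CSMD2, CSMD1. With all regions used, the covered share fell in the same order. The part of read density in that order was not tested either.

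**Figure D4:**
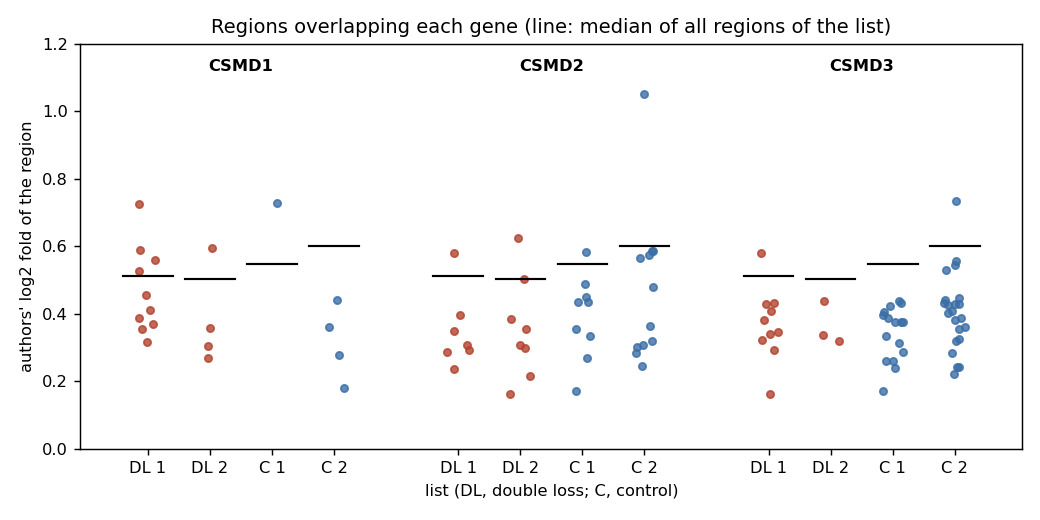
Authors' log2 fold of LaminB1 over control library reads (y axis) for each region overlapping the 3 genes, by list (x axis; DL, double loss; C, control); the horizontal line is the median of all regions of that list, 0.50 to 0.60. Of the 51 regions over CSMD3, 2 lie above the line of their list.

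The CSMD genes were next set beside all 314 protein-coding genes of at least 500 kb. By length CSMD1 ranked 6th, CSMD3 39th and CSMD2 189th among them. By mean covered share CSMD3 ranked 10th in the double loss group and 37th in the control group, CSMD2 151st in the double loss group and 124th in the control group, and CSMD1 200th in the double loss group and 201st in the control group. Of the 314 genes, 94 were at least 50% covered in all 4 lists, 32, CSMD3 among them, at least 85% covered in all 4, and 110, CSMD1 among them, under 10% in all 4. Of the 314, 243 had covered sequence in any list. Both double loss values lay above both controls in 89 of the 243 and below both in 55. Both are larger shares than the 21.5% and 13.9% of all covered genes. Of the 243, 1 gene passed limma, where 1.67% of all covered genes were called higher and 0.981% lower. The long genes of chromosome 8 showed the same range as the CSMD pair there. CNBD1, RIMS2, a presynaptic active zone gene, and RALYL were at 98.2% or more in the double loss lists and at 94.9% or more in the control lists. SNTG1, PSD3 and STK3 were at 0% in all 4 lists.

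**Figure D5:**
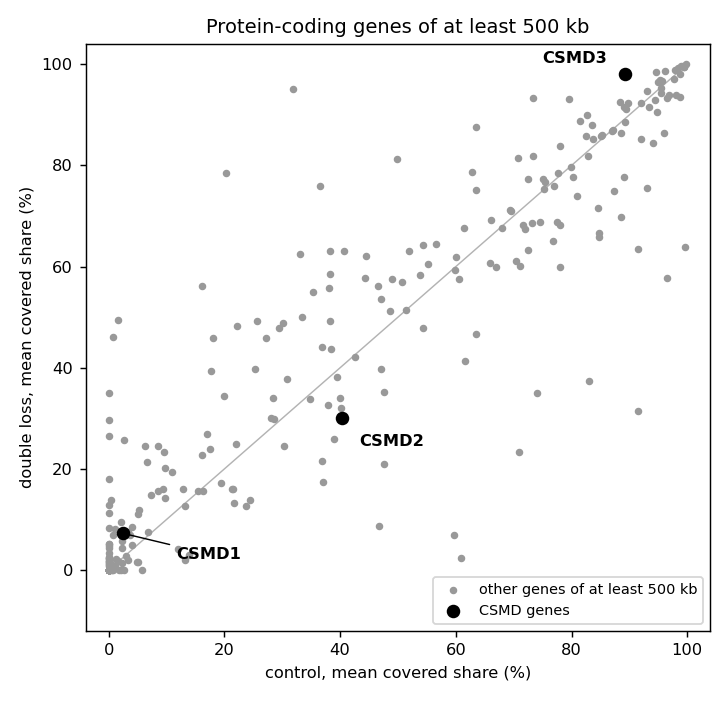
Mean covered share of gene bodies in the double loss group (y axis, percent) against the control group (x axis, percent) for the 314 long protein-coding genes (500 kb or more), with the line of equal shares. CSMD3 lies above the line, at 98.1% in the double loss group and 89.3% in the control group, CSMD2 below it, at 30.1% in the double loss group and 40.3% in the control group, and CSMD1 near the origin.

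By the mean absolute difference of the shares in the 4 libraries, the genes of at least 500 kb closest to CSMD3 were NLGN1, a neuroligin gene of synaptic adhesion (2.89 points), the transcription factor gene FOXP2 (3.23) and the orphan nuclear receptor gene ESRRG (3.65). Closest to CSMD2 were CTNND2, the delta-catenin gene (1.69 points), WWOX, an oxidoreductase gene at a fragile site (2.41), and KSR2, a scaffold gene of RAF signalling (2.56). Closest to CSMD1 were PTPRD, a receptor tyrosine phosphatase gene of 2298.76 kb (0.824 points), the netrin receptor gene UNC5D (1.21), and EYS, a photoreceptor matrix gene (1.63). The likeness is over 4 libraries and is a description, and the choice largely fixes that such genes share a direction.

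Other genes with the same domains were mostly outside regions, as were protein-coding genes in general, of which 3058 of 19974 had covered sequence. Both lists of domain genes below held a larger share of covered genes, and this difference was not tested. Of 50 other genes with Sushi domains, among them complement regulators and selectins, 12 had covered sequence in any list. Limma called 0 of them in either direction after Benjamini-Hochberg adjustment, with 1 at an unadjusted p under 0.05. In this list 1 gene lay above both controls and 3 below, against 21.5% and 13.9% of all covered genes, and the median difference of the 12 was 0.0875 points. SELP, the P-selectin gene on chromosome 1, was at 55.7% and 90.3% in the double loss lists and 100% in both control lists. C7, a complement component of the membrane attack complex, was at 59.4% and 52.8% in the double loss lists, against 76.7% and 80.04% in the control lists (limma adjusted p = 0.296). SUSD4, a complement-inhibiting membrane protein gene, was at 51.9% and 67.2% in the double loss lists, against 38.1% and 39.5% in the control lists (limma adjusted p = 0.495).

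Of 39 other genes with CUB domains, 8 of them in both lists of genes, 11 had covered sequence, and limma again called 0, with 1 at an unadjusted p under 0.05. Here 4 of the 11 lay above both controls and 1 below, against 21.5% and 13.9% of all covered genes, and the median difference of the 11 was 11.9 points, against 0.768 over all covered genes. TLL1, an astacin metalloprotease gene of the BMP1 family, was at 51.4% and 48.4% in the double loss lists, against 13.4% and 0% in the control lists (limma adjusted p = 0.296). CUZD1 was at 100% in both double loss lists, against 86.4% and 0% in the control lists, so its difference rests on control 2. TNFAIP6, which encodes a hyaluronan-binding protein, was at 0% and 85.6% in the double loss lists and 0% in both control lists, so its difference rests on double loss 2. Among the covered genes of the lists, 9 with Sushi and 3 with CUB domains were at least 50% covered in all 4 lists.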

How the data were processed

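LaminB1 CUT&RUN libraries were read as pairs of 75 bases, per the labels' protocols. The submitters' processing notes name Bowtie2 2.3.4.3, Picard and hg38. How regions were called is not given in the sources used here. Regions in the deposited lists lie on a 1 kb grid. The deposited counts of LaminB1 and control library reads per region are raw, as their column names in the file headers and their whole values show. The deposited p-value of a region, adjusted by the authors, was 0.0500 at most and served only for a stricter alternative at 0.01. The deposited log2 fold is the log2 ratio of the LaminB1 and control library counts less a constant that is the same for a whole list, and the deposited score is 100 times it, as tested on the values. Files were matched to samples through genotype and replicate number in their names. IgG libraries were not analysed as samples. The 1 or 2 regions per list that lay off chromosomes 1 to 22 and X were dropped. Pairs of regions with identical edges had equal control counts in 105 of 105 cases within groups and 3 of 154 between groups, so the lists of a group share their control counts. The labels do not say which library that was.

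Gene bodies came from the RefSeq table of GRCh38.p14, matched by symbol, and start windows from its promoter table, which held CSMD2. Covered shares of gene bodies, and of 20 kb steps from each gene's lower coordinate, were computed with Python 3.11.15, numpy 2.4.6 and pandas 2.3.3. The arcsine of their square root went into limma 3.58.1 (R 4.3.3) with a variance trend, and p-values were adjusted by Benjamini-Hochberg (threshold 0.05) over features covered in at least 1 library. The fit was also run on simulated data with changes of 1 size. Their spreads were drawn from the non-zero spreads of these libraries and shuffled over features. There the fit gave most changed features the right sign but passed none of them. These settings differ from the real data, where limma called 51 genes higher and 30 lower. How often the fit misses a change here is thus unknown, and a missed threshold does not show that groups were alike. The alternatives changed the region set, merging, step size, transformation, trend or block, or left out 1 library. Neighbouring steps share regions and are not independent. The members, lists and tests were chosen with earlier results of these data known. Named genes were the members, overlapping genes, the 3 nearest genes per side, the 3 most alike genes of at least 500 kb, and the 3 largest differences of each domain list; the other long genes of chromosome 8 were chosen after their values were seen. A gene that this rule names is not reported here.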

Additional observations from a re-analysis of the deposited data

How the results depend on the processing

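The covered shares of CSMD1, CSMD2 and CSMD3 kept their direction under the 14 alternatives run for each gene, and limma made no call in the 13 of these that it fitted. The other, the share of steps at least 50% covered, has no test. For some alternatives the direction was fixed in advance. The block, the transformation and the trend leave the difference itself unchanged. Leaving out 1 library cannot reverse the direction where the groups do not overlap, as in each of these genes. Only the alternatives that changed the regions, the gene bounds or the measure could have reversed it. Differences ranged from 2.11 to 6.82 points for CSMD1, from -16.8 to -0.46 for CSMD2 and from 0.329 to 35.3 for CSMD3, with limma adjusted p from 0.424 to 0.749, 0.435 to 1 and 0.182 to 0.973. Leaving out 1 library gave 2.94 to 6.82, -13.1 to -7.13 and 5.64 to 12.0 points. The ends of the ranges of CSMD2 and CSMD3 came from the upper 50% and the equal number of regions by log2 fold. Steps of CSMD3 above both controls numbered 8, but 1 with gaps of at most 5 kb merged, 14 with an equal number of regions and 0 with the upper 50%.

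Counts over all genes moved more. Against 51 genes higher and 30 lower, limma called 106 to 377 higher and 121 to 228 lower with 1 library left out. It called 0 and 0 with 10 kb added on each side (543 genes at an unadjusted p under 0.05), 94 and 52 without the variance trend, 26 higher with an equal number of regions, and 46 lower with gaps merged. Against 0 steps in either direction, it called 778 to 1966 higher and 831 to 1191 lower with 1 library left out, 420 and 314 without the trend, 375 and 307 with the upper 50% of regions, and 259 and 221 with gaps merged. It called 834 and 606 steps of 10 kb, 64 and 52 of 50 kb, and 213 and 189 on a 20 kb grid from the chromosome start. The cause was not tested. Blocking on the replicate number gave 0 genes higher and 0 lower (328 at an unadjusted p under 0.05) and 0 steps. The numbers are shared in name only: same-numbered libraries had a correlation of deviations of -0.02 over 3058 genes. The fit without the filter on covered features could not be made, because most features have no spread. The unknown depth outside regions limits what an uncovered stretch can show.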

Other observations

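With 1 library left out, limma also called single steps of the other 2 genes, and the arm with 1 library is then assumed to vary like the other. In steps of these genes the kept pair was often at 0% in both libraries, a pair with no spread. Any covered sequence in the lone library then stands apart from that pair, so calls in such steps carry no weight. The direction called in CSMD1 changed with the library dropped. Calls there were of lower coverage without either control library, and of higher coverage without either double loss library. In CSMD2 calls were mostly of lower coverage. The covered share of the whole CSMD1 body kept its direction. Leaving out 1 library could not reverse it, because both double loss values lay above both control values. The difference of the whole body was 3.50 points without control 1 and 6.26 without control 2. It was 2.94 points without double loss 1 and 6.82 without double loss 2.

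On chromosome 8, 5 other genes of at least 500 kb differed between the groups by more points than CSMD3, and none of them passed limma. NRG1, the neuregulin gene, was at 52.1% and 46.4% in the double loss lists and 25.8% and 25.4% in the control lists (limma adjusted p = 0.244). DLGAP2, a postsynaptic scaffold gene on the telomeric side of CSMD1, was at 33.6% and 45.1% in the double loss lists and 15.1% and 20.3% in the control lists (limma adjusted p = 0.327). The differences, double loss minus control, were 13.6 points for SGCZ, -15.3 for CLVS1 and -11.2 for DLC1. SGCZ was at 23.9% and 3.90% in the double loss lists and 0% and 0.693% in the control lists, so its difference rests largely on double loss 1. CLVS1 was at 15.1% and 28.1% in the double loss lists and 35.4% and 38.4% in the control lists. DLC1 was at 4.03% and 0% in the double loss lists and 12.2% and 14.2% in the control lists. These genes were chosen after their values were seen.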
